A study of Mus musculus with 10 samples.

Results

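Mouse splenic B lymphocytes that had divided during 48 h of culture were compared with cells of the same age in culture that had been activated and had not divided. The comparison rests on 4 of the 10 libraries of the series, the 2 labelled div0 (undivided) and the 2 labelled div12 (divided), and runs over every gene of the table. All cells came from C57BL/6 mice, an inbred laboratory strain, with no transgene, deletion or age given in the labels. Cells of both groups were pulsed with anti-IgM, which engages the antigen receptor, and anti-CD40, which stands in for T cell help, and RNA was taken from 1000000 cells. The labels describe the 2 replicates of each group as independent, each from a pool of 4 to 5 mice, so a library is an average over animals and the spread between libraries is smaller than that between single animals would be. How undivided and divided cells were separated at 48 h is not given in the sources used here, and div12 holds whatever mixture of division numbers the cells had reached. The other libraries of the series also enter the model. They are 2 of resting cells (naive) and 4 of div12 cells that stayed in anti-CD40 (0.12 µg/ml) for another 48 h. Those 4 were sorted by whether the cells divided again (div12_48_d) or not (div12_48_u). They give a second contrast on division, tested with the same pooled error.

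A resting B cell that receives a signal through its antigen receptor together with CD40 leaves quiescence, grows, and enters S phase once cyclin D and cyclin E kinases have inactivated the retinoblastoma proteins and freed E2F transcription factors. E2F drives the genes that license and copy DNA, and later the MuvB complex with B-MYB and FOXM1 drives the genes of mitosis. Some cells of a stimulated culture pass through this programme early and others stay undivided, so divided and undivided cells of a culture have seen the same stimulus. Survivin, the product of Birc5 and the protein named in the series title, belongs to the inhibitor of apoptosis family and to the chromosomal passenger complex that steers chromosome segregation.

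Values are TPM, a length-corrected transcript abundance whose sum is 1000000 in every library, added up by gene symbol. TPM compares genes per length and keeps no read count, so the sequencing depth is unknown. A log2 difference, printed as difference ± standard error (SE), is div12 minus div0 on the log2(TPM + 1) scale. The added 1 TPM makes the change of low genes look smaller than it was. A gene has risen or fallen in divided cells where limma gave a two-sided Benjamini-Hochberg adjusted p under 0.05 over the 4427 genes that passed the filter on low values. Genes given below with levels and a difference only, and not said to have missed the threshold, were called. Counts for the gene lists below cover tested members only. The table holds 6610 genes and lacks many symbols planned for the lists. It held 24 of 83 planned ribosomal protein genes, 27 of 82 mitotic genes and 41 of 77 oxidative phosphorylation genes. For ribosome assembly it held 10 of 47, for the proteasome 8 of 38 and for MHC class II 9 of 17. With 2 libraries a group, an exact permutation test of a single gene cannot pass that threshold, so each p leans on the spread shared by all 10 libraries.

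Divided cells held a larger share of RNA for DNA replication, for glycolytic and respiratory enzymes, for chaperones and for a few surface and secreted proteins, and a smaller share for quiescence factors, antigen receptor signalling and MHC class II. Of the 4427 genes, 388 were called (8.76%), 163 of them higher (3.68%) and 225 lower (5.08%). Most of these differences were moderate, since 13 of the genes that rose and 36 of those that fell differed by more than 2-fold. The shares of 3.68% and 5.08% are the background for the list counts below. The median log2 difference over all tested genes was -0.07, with 1800 genes positive and 2610 negative. Libraries of the 2 groups did not overlap for 25.6% of tested genes on the higher side and 40.3% on the lower side, a background against which the non-overlap of any single gene has to be read. All 163 genes that rose and all 225 that fell were among them. Non-overlap of a called gene therefore adds no support to its call.

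The size of the called set depended on the libraries and the scaling, and this applies to every call below. Without either div0 library 0 genes were called (682 and 831 at an unadjusted p under 0.05 by limma), without div12 replicate 2 there were 4, and without div12 replicate 1 there were 119. Each of the 388 genes kept its direction in all 10 fits that left out 1 library. That was fixed beforehand, because the div0 and div12 libraries overlapped for none of the called genes, and it lends the calls no support. Median-ratio scaling gave 346 genes higher and 177 lower, and quantile normalization 200 and 182, so the excess of falls over rises did not hold across scalings.

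**Figure D1:**
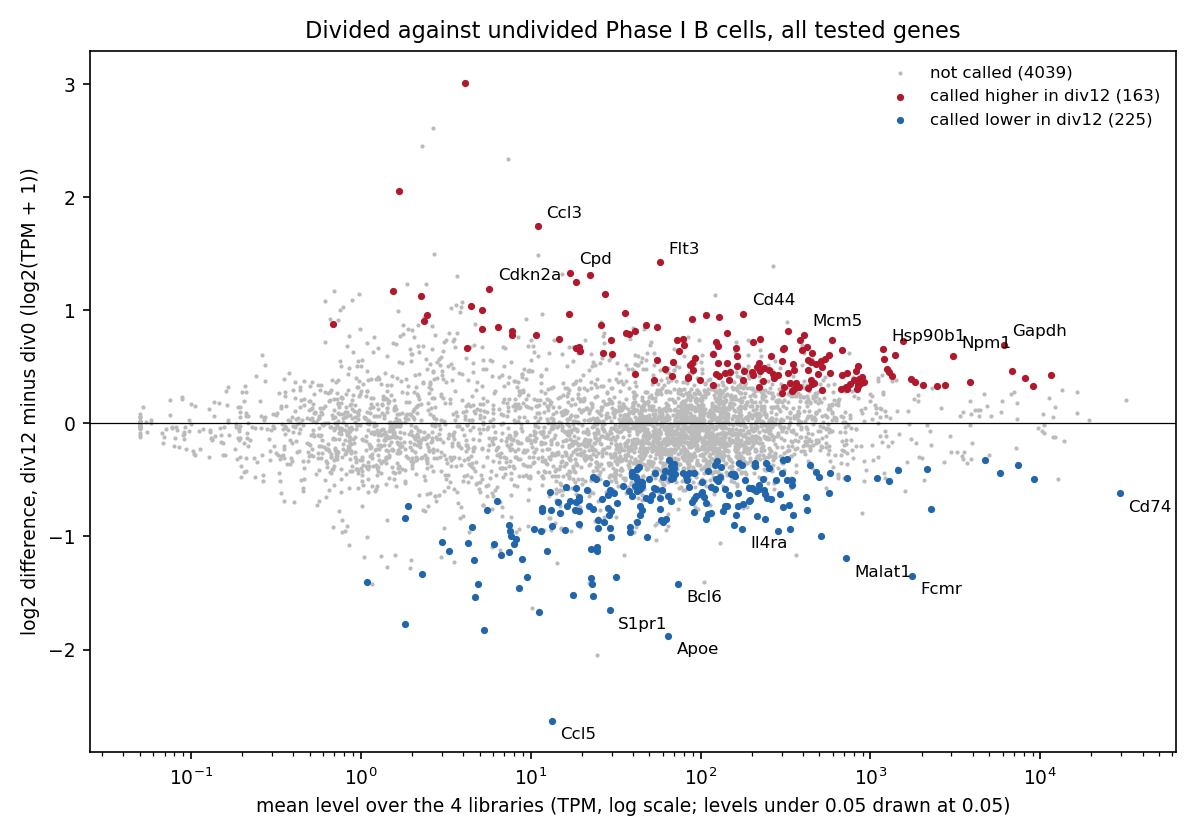
Each point is 1 of the 4427 tested genes, placed by its mean TPM over the 4 Phase I libraries (log axis) and its log2 difference between divided and undivided cells. Red points are the 163 genes called higher in div12 and blue points the 225 called lower, and called genes are seen over most of the range of levels, up to Cd74 at a mean of 35597 TPM in div0.

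As a check of the labelled cell type, B cell genes were abundant in all 4 libraries. The summed level of the listed B cell markers was 55771 and 53475 TPM in div0 and 40806 and 36516 TPM in div12, so it was lower in divided cells, and this moved mostly with Cd74. Markers of T cells summed to between 273 and 297 TPM, those of NK cells to between 6.97 and 9.45 TPM and those of myeloid cells to between 143 and 233 TPM over the 4 libraries, with C1qa at 0 in each. Erythroid markers summed to 93.9 and 99.4 TPM in div0 and to 145 and 149.8 TPM in div12, where Tfrc, the transferrin receptor that growing cells also use, made up most of the sum. Among tested markers, Cd5 of 10 for T cells, Flt3 of 23 for myeloid cells, and Tfrc and Hbb-b1 of 9 for erythroid cells were called, all higher in div12. Of the 10 T cell markers 8 had a negative difference, unlike Cd5, and their list median was -0.21. Myeloid markers were 11 positive and 10 negative, and erythroid markers 5 and 3. The part of other cells in the results was not tested. In bulk RNA, fewer cells of a type and less RNA per cell cannot be told apart. Between replicates the log2 ratio had an SD over genes of 0.258 in div0 and 0.280 in div12, against 0.554 in naive cells, whose spread enters the pooled error.

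The genes of DNA replication formed the clearest group. Of 32 tested genes of the G1/S and replication list 18 rose (56.2%, against 3.68% of all tested genes) and 0 fell. In this list 31 differences were positive, and the median was 0.56 against -0.07 over all tested genes. Gins2, a subunit of the GINS complex that completes the replicative helicase, lies at chromosome 8, 120581266 to 120589075 (GRCm38.p6). Its level was 69.8 and 75.7 TPM in div0 and 142 and 143 TPM in div12, a log2 difference of 0.96 ± 0.12 (adjusted p = 0.0109). The replicates were almost equal within each group, and the level nearly doubled, with a fold of 1.95. All 6 genes of the MCM2 to MCM7 hexamer, the motor of that helicase, rose, by 0.48 to 0.79. Mcm5 stood at 269 and 328 TPM in div0 and 534 and 492 TPM in div12 (0.79 ± 0.13). Mcm6 stood at 271 and 306 TPM in div0 and 491 and 469 TPM in div12 (0.73 ± 0.09). For both genes the div12 libraries lay clear of the div0 libraries, by more than the replicates differed. Mcm6, like Gmnn and Pcna below, falls outside the rule that chose the other named genes and was picked after its values were seen.

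Regulators of licensing and of the G1/S transition moved with the helicase. Dtl encodes the substrate receptor through which a ubiquitin ligase destroys the licensing factor CDT1 in S phase, and its level was 55.9 and 67.5 TPM in div0 and 118 and 116 TPM in div12 (0.92 ± 0.21). Gmnn, which encodes the CDT1 inhibitor geminin, stood at 145 and 159.9 TPM in div0 and 260.2 and 244 TPM in div12 (0.72 ± 0.10). Ccne2 encodes cyclin E2, the partner of CDK2 at S phase entry, and stood at 26.8 and 31.9 TPM in div0 and 49.4 and 55.3 TPM in div12 (0.82 ± 0.20). Each of these regulators, like every gene that rose, was higher in both divided libraries than in both undivided ones. Dscc1, a subunit of an alternative clamp loader, was at 28.3 and 27 TPM in div0 and 49.8 and 47 TPM in div12 (0.79 ± 0.14), and Pcna, the sliding clamp itself, at 893 and 1037 TPM in div0 and 1404 and 1457 TPM in div12 (0.57 ± 0.11). Among members that missed the threshold, Rrm2, the small subunit of ribonucleotide reductase, was at 289 and 351 TPM in div0 and 534 and 449 TPM in div12 (adjusted p = 0.0567). Uhrf1, a factor of maintenance DNA methylation, also missed it, at 314 and 411 TPM in div0 and 621 and 457 TPM in div12 (0.57 ± 0.19). In neither did the groups overlap, and div12 replicate 1 was the highest library of both. In other settings the count of replication genes that rose ran from 10 in a fit of the compared groups alone to 25 with median-ratio scaling.

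Promoter sequences of these genes are shown because the members moved together and E2F is the textbook regulator of the group. RefSeq promoters of build GRCm38.p6, 250 bases before to 50 after the start, were matched by symbol for 3435 of the 4427 tested genes and searched on both strands for the E2F letters TTTCCCGC or TTTGGCGC. A match stood in 1.56% of all promoters, in 3.0% of those of tested genes, in 10.1% of promoters of genes that rose, in 1.21% of promoters of genes that fell, and in 6 of 13 promoters of replication genes that rose. The pentamer CCAAT, bound by NF-Y, stood in 37.4% of all promoters, in 50.9% of those of genes that rose, in 34.8% of those of genes that fell, and in all 13 promoters of replication genes that rose. Over all tested replication genes, called or not, the E2F letters stood in 10 of 33 promoters and CCAAT in 19 of 33. The windows below run 5′ to 3′ on the strand of the gene, with the E2F match on either strand in capitals, and a match is a stretch of letters and not a shown binding site.
Mcm6, chr1:128359715-128359782, minus strand: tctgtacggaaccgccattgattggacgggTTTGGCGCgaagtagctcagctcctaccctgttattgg
Mcm5, chr8:75109330-75109397, plus strand: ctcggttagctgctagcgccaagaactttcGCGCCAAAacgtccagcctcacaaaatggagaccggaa
Dtl, chr1:191575545-191575582, minus strand: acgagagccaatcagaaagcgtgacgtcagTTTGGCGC

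Genes of mitosis pointed the same way with fewer calls. Of 27 tested members of the G2/M and mitosis list 4 rose (14.8%, against 3.68% of all tested genes) and 0 fell. In this list 26 differences were positive, and the median was 0.50. The 4 were Ncapg2 and Smc4, subunits of condensin complexes, Birc5, and Cdk1, the mitotic kinase. Birc5 at chromosome 11, 117849237 to 117855743 (GRCm38.p6) stood at 287 and 372 TPM in div0 and 540.0 and 505 TPM in div12 (0.67 ± 0.15, adjusted p = 0.0361). Both divided libraries were above both undivided ones, as for every gene that rose. Cdk1 was at 51.8 and 65.3 TPM in div0 and 97 and 86.3 TPM in div12 (0.64 ± 0.16, adjusted p = 0.0471). Ncapg2 was at 53.5 and 64.5 TPM in div0 and 104 and 95 TPM in div12 (0.75 ± 0.17). The proliferation marker Mki67 was at 366 and 484 TPM in div0 and 706 and 533 TPM in div12 and missed the threshold (adjusted p = 0.133). Ccnb1, the mitotic cyclin, was at 105 and 139 TPM in div0 and 221 and 179 TPM in div12 (adjusted p = 0.0804). Aurkb, the kinase of the passenger complex, was at 135 and 183 TPM in div0 and 242 and 166 TPM in div12 (adjusted p = 0.391). In Aurkb the groups overlapped, with div12 replicate 2 below div0 replicate 2. By limma 0 of the 27 were called in the compared groups alone (15 at an unadjusted p under 0.05) or without the mean-variance trend (16), and 13 were called with median-ratio scaling.

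The CHR letters TTTGAA, through which DREAM and MuvB complexes hold many mitotic genes, stood in 17.9% of all promoters, in 12.1% of those of tested genes and in 17 of 25 promoters of tested G2/M genes. They stood in 13.8% of promoters of all genes that rose and in 12.1% of those of genes that fell. Of the 4 mitotic genes that rose 3 had a matched promoter, and 2 of those 3 promoters held the letters. Their windows are shown with the match in capitals. A missing match says nothing of the factors, and no promoter result is given for Birc5.
Cdk1, chr10:69352913-69352957, minus strand: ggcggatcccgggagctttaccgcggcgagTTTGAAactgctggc
Ncapg2, chr12:116405388-116405435, plus strand: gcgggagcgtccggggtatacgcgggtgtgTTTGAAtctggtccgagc

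Cell cycle regulators outside those lists were called in single cases. Of 16 tested D cyclins, CDKs and pocket proteins 2 rose (12.5%, against 3.68% of all tested genes) and 0 fell. Cdk4, the kinase partner of D cyclins, was at 550.0 and 620.2 TPM in div0 and 803 and 765 TPM in div12 (0.42 ± 0.08, adjusted p = 0.0228). Cdkn2a, the locus of the INK4A and ARF tumour suppressors, was low throughout, at 2.08 and 4.30 TPM in div0 and 7.59 and 8.90 TPM in div12 (1.19 ± 0.26). Ccnd2, the D cyclin induced by antigen receptor signals, was at 204 and 224 TPM in div0 and 174 and 140.0 TPM in div12 and was not called (adjusted p = 0.0732). Ccnd3 was at 224 and 251 TPM in div0 and 254 and 219.9 TPM in div12 (-0.01 ± 0.14), so its groups overlapped. Myc, the growth regulator, was at 177 and 202 TPM in div0 and 174 and 125 TPM in div12 and was not called (-0.36 ± 0.35, adjusted p = 0.552). In the list of DNA repair and checkpoint genes 2 of 25 rose (8.0%) and 0 fell. Chek1, the kinase of the replication checkpoint, was at 29.5 and 37.7 TPM in div0 and 65.4 and 58.4 TPM in div12 (0.87 ± 0.21). Tipin, a replication fork protection factor, was at 99.3 and 109 TPM in div0 and 178 and 185 TPM in div12 (0.80 ± 0.11). Both divided libraries were above both undivided ones for each, as for every gene that rose.

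Of 25 BCL2 family and caspase genes 1 rose (4.0%) and 1 fell (4.0%), near the 3.68% and 5.08% of all tested genes. The gene that fell was Bmf, a pro-apoptotic BH3-only gene that is a FOXO target, at 35.7 and 32.2 TPM in div0 and 15 and 15.8 TPM in div12 (-1.09 ± 0.15, adjusted p = 0.0126). Its divided libraries were nearly equal and lay below both undivided ones. Of 16 tested p53 targets 0 were called by limma (3 at an unadjusted p under 0.05).

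**Figure D2:**
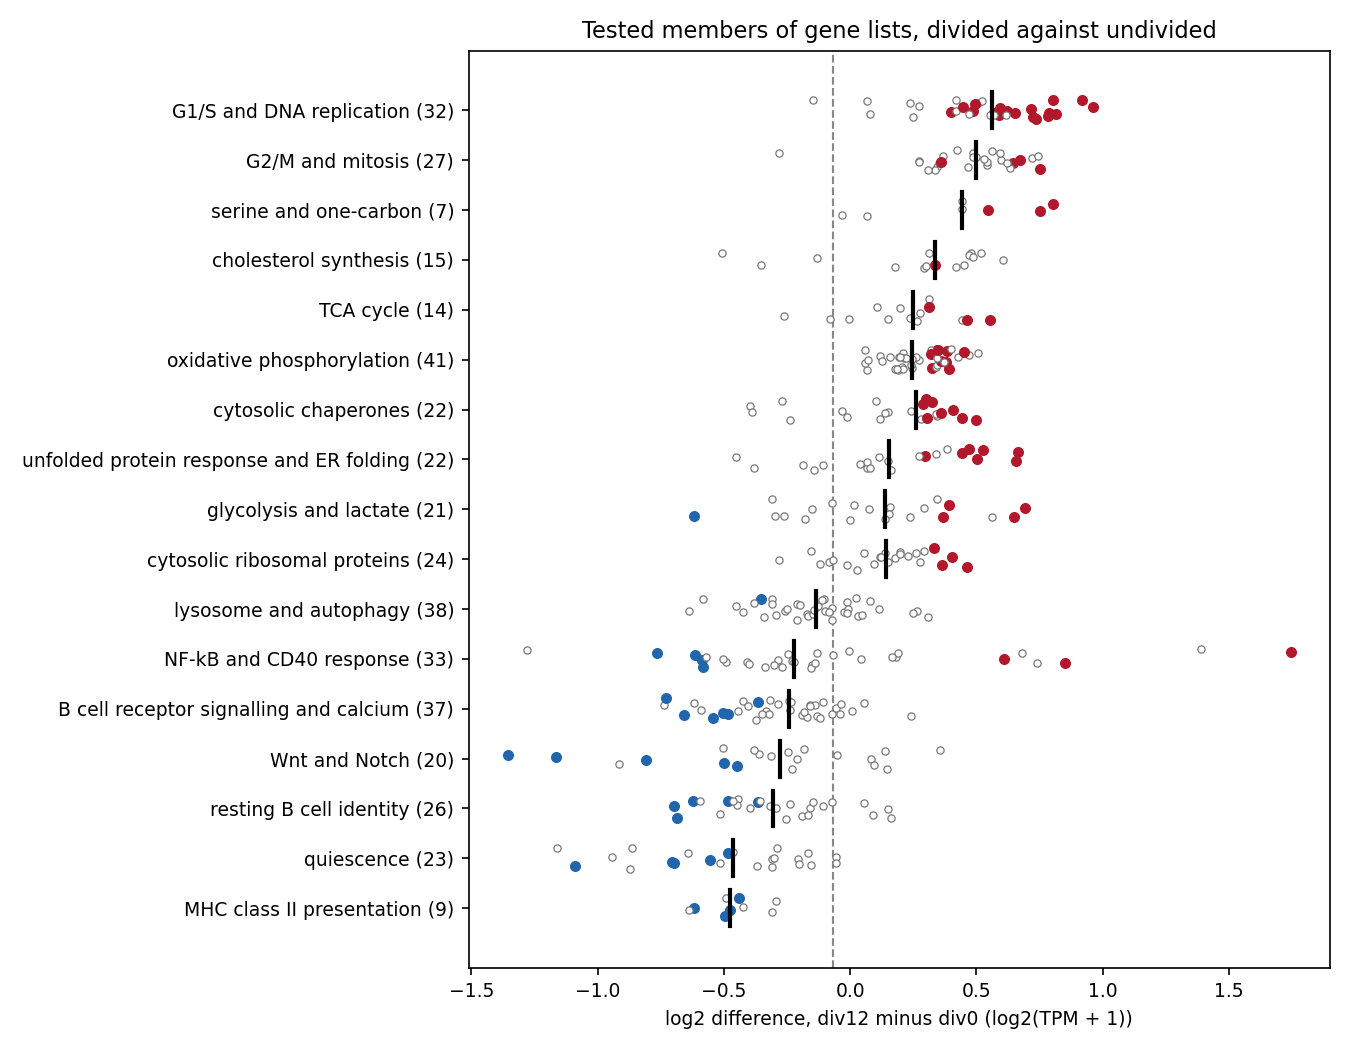
Each circle is a tested member of the gene list named on the left (number tested in brackets), placed by its log2 difference between divided and undivided cells. Red circles rose, blue circles fell and open circles were not called, the black bar is the list's median, and the dashed line is the median of all tested genes at -0.07. Replication genes sit furthest to the right of the lists drawn with a median of 0.56 and MHC class II genes furthest to the left with -0.48.

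Genes of energy metabolism followed the same direction in part. Of 21 glycolysis and lactate genes 4 rose (19.0%) and 1 fell (4.76%), against 3.68% and 5.08% of all tested genes. Of the 21 differences 14 were positive. Gapdh, a glycolytic dehydrogenase, was at 4264 and 5054 TPM in div0 and 7709 and 7323 TPM in div12 (0.69 ± 0.11, adjusted p = 0.0153). Pgk1, the enzyme of the next step, was at 503 and 561 TPM in div0 and 831 and 835 TPM in div12 (0.65 ± 0.08). Ldha, which makes lactate, was at 715 and 760.1 TPM in div0 and 1001 and 932 TPM in div12 (0.39 ± 0.08). Pkm, the pyruvate kinase gene, was at 759 and 847 TPM in div0 and 1097 and 974 TPM in div12 (0.37 ± 0.08). The gene that fell was Pdk1, whose kinase inhibits pyruvate dehydrogenase, at 39.1 and 36 TPM in div0 and 24 and 24.2 TPM in div12 (-0.62 ± 0.11). Its divided libraries were nearly equal, and the fold was 0.651. Pdha1, the subunit of pyruvate dehydrogenase that this kinase phosphorylates, rose, at 149 and 152 TPM in div0 and 203 and 213 TPM in div12 (0.46 ± 0.07).

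Nuclear genes of oxidative phosphorylation had positive differences in 41 of 41 tested members (40 with quantile normalization), with a median of 0.25, and 9 rose. Atp5a1 encodes a subunit of the catalytic core of ATP synthase and was at 1052 and 1115 TPM in div0 and 1507 and 1454 TPM in div12 (0.45 ± 0.07). Atp5b encodes another and was at 1432 and 1549 TPM in div0 and 2058 and 1859.6 TPM in div12 (0.39 ± 0.09). Cox5b of cytochrome oxidase was at 771 and 781 TPM in div0 and 971 and 1021 TPM in div12 (0.36 ± 0.08). These differences shared a sign and ran from 0.06 to 0.51, and how many passed the threshold varied from 1 without the trend and 2 in the compared groups alone to 17 with median-ratio scaling. In the TCA cycle list 3 of 14 genes rose (21.4%). The fumarate hydratase gene Fh1 at 240.3 and 245 TPM in div0 and 353 and 362 TPM in div12 (0.56 ± 0.08) was the first of them by size.

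In the list of pentose phosphate and nucleotide synthesis 3 of 11 genes rose (27.3%) and 0 fell. Nme2, a nucleoside diphosphate kinase gene, was at 1149 and 1201 TPM in div0 and 1874 and 2015 TPM in div12 (0.73 ± 0.09, adjusted p = 0.0109), and the related Nme1 at 342 and 373 TPM in div0 and 503 and 490.2 TPM in div12 (0.47 ± 0.11). In the serine and one-carbon list 3 of 7 rose (42.9%). Of these, Psat1 of serine synthesis was at 149 and 186 TPM in div0 and 316 and 249.9 TPM in div12 (0.75 ± 0.18). Phgdh, the first enzyme of that route, was at 370.0 and 468 TPM in div0 and 662 and 560.0 TPM in div12 (0.55 ± 0.12). Div12 replicate 1 was the highest library for both of these genes. In cholesterol synthesis 1 of 15 rose, Pmvk, an enzyme of the mevalonate route, at 102 and 105 TPM in div0 and 138 and 126 TPM in div12 (0.34 ± 0.08). Of 23 fatty acid genes 1 rose and 2 fell, the latter being Apoe, described with the largest falls, and Plin2, a coat protein of lipid droplets, at 10.5 and 12.3 TPM in div0 and 5.20 and 4.97 TPM in div12 (-1.02 ± 0.25). The share that rose was 6.67% in the cholesterol list and 4.35% in the fatty acid list, against 3.68% of all tested genes. The share of fatty acid genes that fell was 8.7%, against 5.08% of all tested genes.

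Genes that fold proteins in the endoplasmic reticulum and the cytosol were among those that rose. Of 22 genes of the unfolded protein response and of folding in the endoplasmic reticulum 7 rose (31.8%) and 0 fell. The list's median was 0.15, and 3.68% of all tested genes rose. Hsp90b1, the HSP90 of the endoplasmic reticulum, was at 903 and 933 TPM in div0 and 1451 and 1445 TPM in div12 (0.66 ± 0.07, adjusted p = 0.0109). Hspa5, the BiP chaperone, was at 689 and 702 TPM in div0 and 1012 and 962 TPM in div12 (0.50 ± 0.11). Sdf2l1, a partner of BiP, was at 118 and 131 TPM in div0 and 218 and 179 TPM in div12 (0.66 ± 0.12). Manf, a secreted stress protein, was at 265 and 313 TPM in div0 and 415 and 416 TPM in div12 (0.53 ± 0.09). Pdia3, Canx and P4hb, which encode disulfide isomerases and calnexin, completed the 7. Of 12 tested plasma cell genes 0 were called by limma (3 at an unadjusted p under 0.05), and 1 was called lower in the compared groups alone. Prdm1, the regulator of that fate, was low throughout, at 4.12 and 4.58 TPM in div0 and 1.95 and 1.70 TPM in div12 (adjusted p = 0.153). Its divided libraries lay below both undivided ones, as for 40.3% of tested genes.

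The promoters of this group are shown for the endoplasmic reticulum stress element, CCAAT followed by 9 bases and CCACG, which contains the CCAAT pentamer and was looked for after the values were seen. It stood in 0.119% of all promoters, in 0.155% of those of tested genes, in 5 of 19 promoters of tested members of this list and in 3 of 6 promoters of members that rose. The element is in capitals.
Hspa5, chr2:34771995-34772073, plus strand: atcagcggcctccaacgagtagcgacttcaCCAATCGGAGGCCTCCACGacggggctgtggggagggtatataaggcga
Hsp90b1, chr10:86705503-86705581, minus strand: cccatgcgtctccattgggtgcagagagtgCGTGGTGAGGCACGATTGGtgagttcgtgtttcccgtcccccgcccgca

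In the cytosol, 8 of 22 chaperone genes rose (36.4%) and 0 fell. They were Hsp90aa1, Hspd1 of mitochondria, Tcp1 and 5 other subunits of its CCT ring, which folds actin and tubulin. Hspd1 was at 419 and 444 TPM in div0 and 621 and 597 TPM in div12 (0.50 ± 0.10), and Tcp1 at 599.7 and 632 TPM in div0 and 832 and 842 TPM in div12 (0.44 ± 0.10). With no trend 0 of the 22 were called by limma (11 at an unadjusted p under 0.05) and with quantile normalization 3. Of 24 tested ribosomal protein genes, from 83 planned, 4 rose (16.7%, against 3.68% of all tested genes) and 0 fell. The 4, Rpl3, Rps2, Rpl5 and Rpsa, rose by 0.33 to 0.46. Rpl3 was at 5575 and 5889 TPM in div0 and 7714 and 8082 TPM in div12 (0.46 ± 0.08). Of 10 genes of ribosome assembly 2 rose (20.0%), among them Npm1, the nucleolar chaperone, at 2383 and 2529.7 TPM in div0 and 3739 and 3676 TPM in div12 (0.59 ± 0.07, adjusted p = 0.0109). Its replicates differed far less than its groups did. Ppia, a cyclophilin often used as a reference gene, had the largest rise in TPM of the named genes, and stood at 9528 and 10334 TPM in div0 and 13021 and 13599.9 TPM in div12 (0.42 ± 0.09).

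In the list of genes associated with quiescence 5 of 23 tested genes fell (21.7%, against 5.08% of all tested genes) and 0 rose. All 23 differences were negative (22 with median-ratio scaling or quantile normalization) and the median was -0.46. Foxo1, a transcription factor of resting lymphocytes that antigen receptor signalling switches off, was at 140.5 and 128 TPM in div0 and 92.7 and 72 TPM in div12 (-0.71 ± 0.16). Bach2, a repressor that holds B cells short of plasma cell fate, was at 113 and 108 TPM in div0 and 78 and 59 TPM in div12 (-0.70 ± 0.15). Tob1, an antiproliferative gene, was at 42.2 and 40.9 TPM in div0 and 30.9 and 25.3 TPM in div12 (-0.55 ± 0.13), and Zfp36l1, an RNA decay factor, at 1326 and 1218 TPM in div0 and 951 and 869 TPM in div12 (-0.48 ± 0.12). In these genes, as in every gene that fell, both divided libraries were below both undivided ones. Klf2, a factor that keeps lymphocytes resting, was at 78.3 and 79.4 TPM in div0 and 45.2 and 40.3 TPM in div12 and just missed the threshold (adjusted p = 0.0565). The CDK inhibitor gene Cdkn1b was at 129 and 122 TPM in div0 and 111 and 111 TPM in div12 (adjusted p = 0.311).

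The resting B cell identity list had 5 of 26 members lower (19.2%, against 5.08% of all tested genes) and 0 higher, with a median of -0.30. Ebf1, a lineage factor of B cells, was at 126 and 119 TPM in div0 and 85.6 and 72.9 TPM in div12 (-0.62 ± 0.13). Cd55, a complement regulator, was at 253 and 221 TPM in div0 and 141 and 153 TPM in div12 (-0.69 ± 0.11). Outside that list, Fcmr, the receptor for the constant part of IgM, sits at chromosome 1, 130865777 to 130880790 (GRCm38.p6). It was at 2701 and 2371 TPM in div0 and 1049 and 944 TPM in div12 (-1.35 ± 0.14, adjusted p = 0.0109). The divided libraries were far below the undivided ones, at a fold of 0.393, and of the 36 genes that fell by more than 2-fold it was the most abundant in div0.

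**Figure D3:**
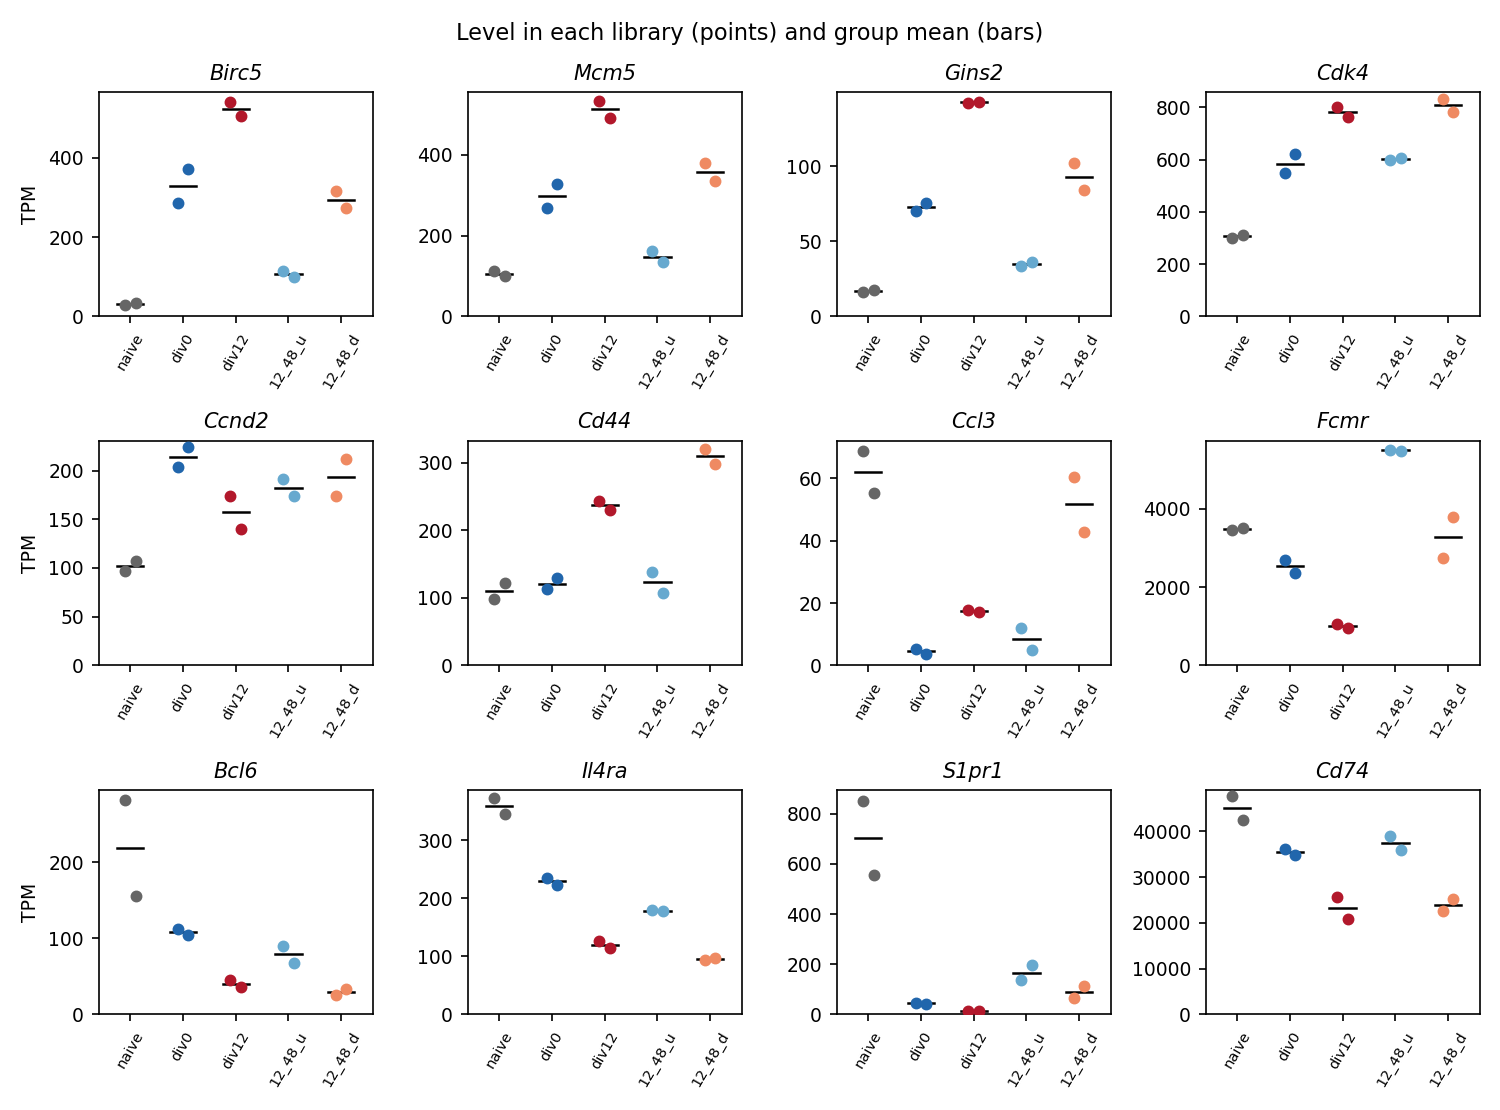
Points give the TPM of 12 genes in each of the 10 libraries, by group, with bars at the group means on axes that start at 0. Div12 libraries stand above div0 libraries for Birc5, Mcm5, Gins2, Cdk4, Cd44 and Ccl3 and below them for Fcmr, Bcl6, Il4ra, S1pr1 and Cd74, while Ccnd2 was not called.

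MHC class II genes, through which B cells show antigen to T cells, had negative differences in 9 of 9 tested members, with a median of -0.48. Of these, 4 fell (44.4%, against 5.08% of all tested genes). Cd74, the invariant chain and the most abundant of them, was at 36253 and 34941 TPM in div0 and 25728 and 20851 TPM in div12 (-0.62 ± 0.13, adjusted p = 0.0285). H2-Ab1, a beta chain, was at 11089 and 10497 TPM in div0 and 7942 and 7391 TPM in div12 (-0.49 ± 0.10). H2-Eb1, another, was at 6986 and 6423 TPM in div0 and 4750.5 and 5128 TPM in div12 (-0.44 ± 0.10). Ciita, the master activator of these genes, was at 613 and 552 TPM in div0 and 451 and 387 TPM in div12 (-0.48 ± 0.10). All 4, the activator as well as its targets, were lower in both divided libraries, as was every gene that fell. The alpha chain gene H2-Aa missed the threshold at 15728 and 13972 TPM in div0 and 9787 and 11385 TPM in div12 (adjusted p = 0.0546). By limma 0 of the 9 were called in the compared groups alone (8 at an unadjusted p under 0.05), and 1 with median-ratio scaling. The class I gene H2-K1 fell too, at 5066 and 5521 TPM in div0 and 4372 and 4059 TPM in div12 (-0.33 ± 0.08).

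Antigen receptor signalling genes fell in 6 of 37 tested cases (16.2%, against 5.08% of all tested genes) and rose in 0. The median was -0.24, and 34 differences were negative. Itpr3 encodes a calcium release channel and was at 204 and 209.9 TPM in div0 and 142 and 109.7 TPM in div12 (-0.73 ± 0.13). Itpr2, a second such channel, was at 62.1 and 54.6 TPM in div0 and 39.2 and 34.1 TPM in div12 (-0.66 ± 0.14). Pik3ap1, the adaptor BCAP that links the receptor to PI3 kinase, was at 432 and 391 TPM in div0 and 303 and 262 TPM in div12 (-0.54 ± 0.10). Syk, the proximal kinase, was at 845 and 855 TPM in div0 and 652 and 567 TPM in div12 (-0.48 ± 0.12). The receptor's signalling chain Cd79a was at 8571 and 8086 TPM in div0 and 6235 and 6684 TPM in div12 (-0.37 ± 0.09), and the phosphatase gene Inpp5d at 379 and 374 TPM in div0 and 297 and 238 TPM in div12 (-0.50 ± 0.12). The folds ranged from 0.604 for Itpr3 to 0.775 for Cd79a, and 0 of the 37 were called by limma in the compared groups alone (17 at an unadjusted p under 0.05).

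Genes of the NF-kB and CD40 response were called both ways, with 3 of 33 higher (9.09%) and 4 lower (12.1%). Of all tested genes 3.68% rose and 5.08% fell. In this list 10 differences were positive and 23 negative, with a median of -0.22. The NF-kB subunits Rela at 199.7 and 203 TPM in div0 and 151 and 114 TPM in div12 (-0.61 ± 0.15) and Relb at 264 and 265 TPM in div0 and 192 and 161 TPM in div12 (-0.58 ± 0.10) were among those that fell. Map3k14, the NIK kinase of the alternative pathway that CD40 engages, was at 56.2 and 57.3 TPM in div0 and 39.2 and 27.8 TPM in div12 (-0.76 ± 0.18), and Traf3, which restrains that kinase, fell too, by 0.58 on the log2 scale (named after its value was seen). Against them, the chemokine gene Ccl3 at chromosome 11, 83647843 to 83649378 (GRCm38.p6) stood at 5.36 and 3.80 TPM in div0 and 17.9 and 17.2 TPM in div12 (1.74 ± 0.34, adjusted p = 0.0271). That is the largest rise among the genes taken by the naming rule. Cd80, a co-stimulatory ligand for T cells, was at 33.7 and 45.9 TPM in div0 and 74.9 and 68.5 TPM in div12 (0.85 ± 0.17). Batf, an AP-1 factor needed for class switching, was at 93.1 and 93.3 TPM in div0 and 133 and 153 TPM in div12 (0.61 ± 0.10).

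Chemokines, cytokines and their receptors had 1 rise, Ccl3, and 3 falls in 49 tested genes, shares of 2.04% and 6.12% that lie near those of all genes (3.68% and 5.08%). Ccl5, a chemokine gene at chromosome 11, 83525778 to 83530518 (GRCm38.p6), stood at 18 and 29.7 TPM in div0 and 2.64 and 3.19 TPM in div12 (-2.63 ± 0.37, adjusted p = 0.0138). Its fall was the largest of the 225, and its undivided replicates lay well apart from each other and still above both divided ones. Il4ra, the alpha chain of the interleukin-4 receptor, was at 235 and 223 TPM in div0 and 126 and 114 TPM in div12 (-0.93 ± 0.08, adjusted p = 0.0109), and Stat6, which acts below it, at 351 and 341 TPM in div0 and 261 and 251 TPM in div12 (-0.43 ± 0.08). Receptor and transducer were both lower. Tgfbr2 was at 281 and 266 TPM in div0 and 213 and 177 TPM in div12 (-0.49 ± 0.11). Of 26 receptors of homing, adhesion and egress 1 rose (3.85%) and 2 fell (7.69%), again near the shares of all genes. S1pr1, the receptor that lets lymphocytes leave lymphoid tissue, was at 46.6 and 43.2 TPM in div0 and 14 and 13.2 TPM in div12 (-1.65 ± 0.29), and the integrin gene Itgb7 at 69 and 60.3 TPM in div0 and 30.6 and 32.6 TPM in div12 (-1.01 ± 0.25). Cd44, the hyaluronan receptor of activated lymphocytes, went the other way at 113 and 129 TPM in div0 and 244 and 230.0 TPM in div12 (0.97 ± 0.15, adjusted p = 0.0151).

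In the germinal centre and class switching list 2 of 22 genes rose (9.09%) and 4 fell (18.2%). Bcl6, the repressor that defines germinal centre B cells, was at 112 and 104 TPM in div0 and 44.6 and 35.5 TPM in div12 (-1.42 ± 0.27, adjusted p = 0.0254). Hmces, a shield of abasic DNA sites, was at 50.6 and 42.3 TPM in div0 and 15.6 and 19.4 TPM in div12 (-1.36 ± 0.31). Apex1, the abasic endonuclease, rose, at 185 and 209.7 TPM in div0 and 294 and 262 TPM in div12 (0.49 ± 0.10). Wnt and Notch genes had 5 falls and 0 rises in 20. Hes1, a Notch target, was at 14.3 and 13.4 TPM in div0 and 6.85 and 3.28 TPM in div12 (-1.36 ± 0.27). Notch2, the receptor of marginal zone B cells, was at 209 and 202 TPM in div0 and 136 and 100.1 TPM in div12 (-0.81 ± 0.16), and the ligand gene Dll1 at 10.2 and 9.05 TPM in div0 and 3.80 and 3.67 TPM in div12 (-1.16 ± 0.23). Receptor, ligand and target were thus all lower in the divided libraries, and 1 of the 20 genes was called in the compared groups alone. Interferon response genes had 2 rises, Gbp2 and Gbp2b, and 1 fall, Irf1, in 25, and the near-identical guanylate-binding proteins may hold reads of each other. Immediate early genes had 2 falls in 21, with 19 negative differences, 2 positive ones and a median of -0.42. Jund was at 297 and 286 TPM in div0 and 182 and 196 TPM in div12 (-0.62 ± 0.12). Dusp2 was at 263 and 217 TPM in div0 and 153 and 167 TPM in div12 (-0.58 ± 0.10). The falls of this list numbered 1 with median-ratio scaling, 4 in the compared groups alone and 6 without the naive group. Of the interferon genes 8.0% rose and 4.0% fell, and of the immediate early genes 9.52% fell. Among all tested genes 3.68% rose and 5.08% fell.

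Further lists gave single or paired calls. They were those of lysosome and autophagy (1 of 38 lower, Lamp1), the actin cytoskeleton (2 of 31 higher, Lgals1 and Vim), the proteasome (1 of 8 higher, Psmc6) and chromatin (2 of 30 higher, H2afz and Hmgb1, and 2 lower, Kdm5b and Kmt2d). The shares called were 2.63%, 6.45%, 12.5% and 13.3% in that order, against 8.76% of all tested genes. Amino acid transport and ATF4 targets had 0 calls in 12 by limma (3 at an unadjusted p under 0.05). H2afz, a histone variant made throughout the cycle, was at 1023 and 1202 TPM in div0 and 1660.4 and 1704 TPM in div12 (0.60 ± 0.11), and Vim, an intermediate filament gene, at 328 and 363 TPM in div0 and 486 and 536 TPM in div12 (0.56 ± 0.11). The galectin gene Lgals1 was at 84.5 and 90.3 TPM in div0 and 141 and 201 TPM in div12 (0.94 ± 0.21).

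Several of the largest differences belonged to none of those programmes. Flt3, a cytokine receptor of progenitors and dendritic cells that stood in the myeloid marker list, was at 31 and 30.2 TPM in div0 and 73.2 and 96.1 TPM in div12 (1.43 ± 0.23, adjusted p = 0.0154). Both divided libraries were more than 2-fold above both undivided ones, and no other myeloid marker of the 23 tested was called. Cpd, a carboxypeptidase, was at 8.92 and 9.70 TPM in div0 and 24.4 and 25.5 TPM in div12 (1.33 ± 0.24). Spp1, which encodes osteopontin, was at 13.7 and 10.8 TPM in div0 and 25.5 and 39 TPM in div12 (1.31 ± 0.31). Timd2, a receptor for ferritin heavy chain, was at 8.76 and 12.6 TPM in div0 and 28.2 and 24.9 TPM in div12 (1.25 ± 0.22), while Fth1, that heavy chain, fell, at 2855 and 2862 TPM in div0 and 1872 and 1525 TPM in div12 (-0.76 ± 0.14). Together with the rise of Tfrc at 70.3 and 78.5 TPM in div0 and 111 and 112 TPM in div12 (0.58 ± 0.12), these are 3 genes of iron handling that changed, set side by side here after their values were seen. Abcb1b, a drug efflux pump, was at 14.8 and 18.8 TPM in div0 and 40.8 and 35.5 TPM in div12 (1.14 ± 0.14, adjusted p = 0.0109).

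Among the falls, the lipoprotein gene Apoe was at 108 and 96.7 TPM in div0 and 25.5 and 28.7 TPM in div12 (-1.88 ± 0.38, adjusted p = 0.0285). Pde2a, a cyclic nucleotide phosphodiesterase, was at 19.2 and 16 TPM in div0 and 4.66 and 5.00 TPM in div12 (-1.67 ± 0.24). Both divided libraries were more than 2-fold below both undivided ones. Trpm5, a cation channel, was at 25 and 28.9 TPM in div0 and 8.11 and 9.44 TPM in div12 (-1.52 ± 0.22). The nuclear long noncoding RNA Malat1 was at 1078 and 932 TPM in div0 and 391 and 489 TPM in div12 (-1.19 ± 0.13, adjusted p = 0.0109). Its replicates within each group were closer to each other than the groups were.

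The same question was asked again in Phase II, where cells that divided again were set against cells that did not. The 2 contrasts share no library, although the Phase II cells descend from div12 cells and were cultured longer from a smaller input of 500000 cells, so phase, time and input cannot be told apart. Both contrasts were tested with the same pooled error for each gene, so a gene with a small error was more readily called in both. A repeated call is therefore not an independent check. In Phase II limma called 540 genes higher (12.2%) and 594 lower (13.4%) in the cells that had divided again. Of the 163 genes that rose in Phase I, 141 (86.5%) also rose in Phase II and 1 fell, and of the 225 that fell, 171 (76.0%) fell again and 0 rose. These are 26.1% of the Phase II rises and 28.8% of the Phase II falls. By sign, 158 of the 163 were positive and 219 of the 225 negative in Phase II.

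Cell cycle genes stood out again. All 27 tested G2/M genes rose in Phase II, with a median of 1.197 against 0.50 in Phase I, and so did 28 of 32 replication genes, with a median of 0.99. For Gins2 the Phase II difference was 1.39 ± 0.12, for Birc5 1.47 ± 0.15 and for Cdk1 1.43 ± 0.16. The largest Phase II difference of the genes printed here was that of Cdkn2a, at 3.23 ± 0.26, followed by Spp1 (3.13 ± 0.31), Ccl3 (2.57 ± 0.34) and Lgals1 (2.38 ± 0.21). Bcl6 fell by a similar amount again (-1.41 ± 0.27), and so did Cd74 (-0.64 ± 0.13) and Il4ra (-0.89 ± 0.08). Some genes called in Phase I had no Phase II call, among them Ccl5 (-0.89 ± 0.37), Flt3 (-0.06 ± 0.23), Trpm5 (0.45 ± 0.22), Hes1 (-0.29 ± 0.27), Itgb7 (0.11 ± 0.25) and H2-K1 (-0.01 ± 0.08). The globin gene Hbb-b1 was the gene called in opposite directions, at 10.9 and 11.3 TPM in div0 and 20.0 and 25.4 TPM in div12 in Phase I (0.96 ± 0.17) and -0.88 ± 0.17 in Phase II. Near-identical globin genes may hold each other's reads.

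Whether any gene's response to division differed between the phases was tested as the difference of the 2 contrasts, and limma called 0 of 4427 genes (438 at an unadjusted p under 0.05). Median-ratio scaling gave 22, the 4 activated groups alone 11, and the replicate block 3. The values above are therefore set side by side and do not show that Flt3, Trpm5 or any other gene responded differently in Phase II.

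**Figure D4:**
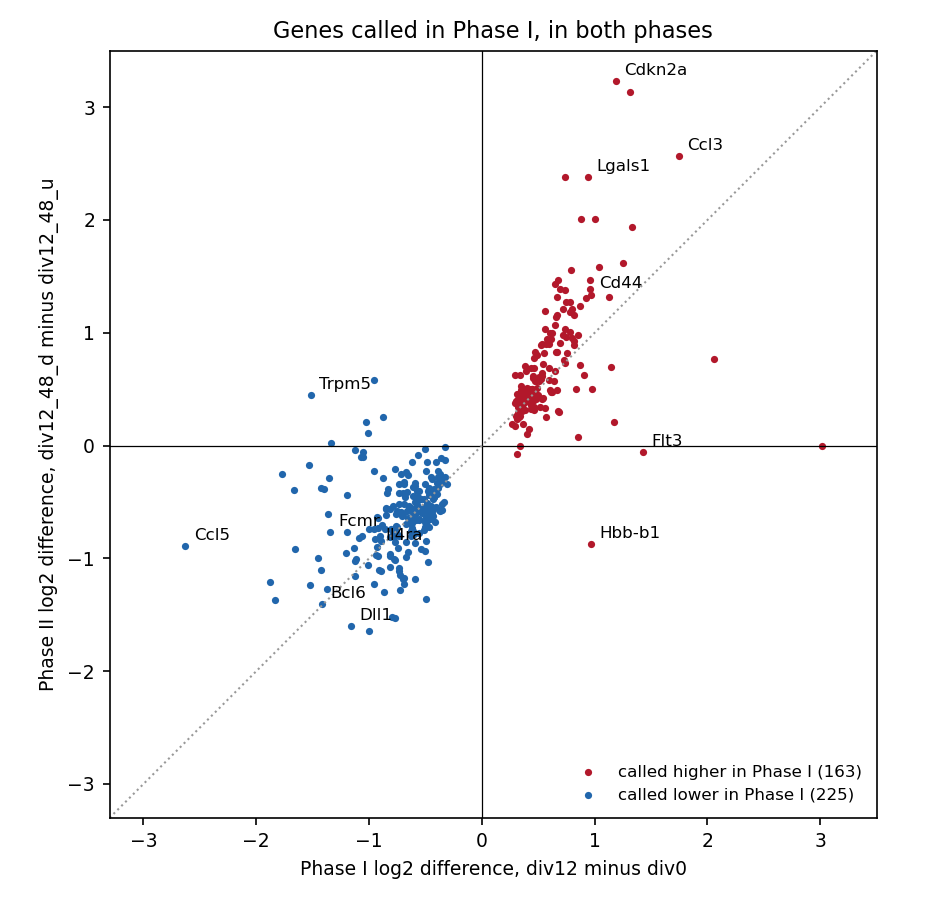
Each point is 1 of the 388 genes called in Phase I, placed by its log2 difference between div12 and div0 (horizontal) and between div12_48_d and div12_48_u (vertical), with the dotted line marking equal differences. Of the red genes, which rose in Phase I, 158 of 163 are positive on the vertical axis, and of the blue genes 219 of 225 are negative.

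Transcripts were also tested one by one, since summing by symbol can hide changes within a gene. In a fit of single transcripts 8165 were tested and 64 called, 22 higher and 42 lower, and 0 genes had 1 transcript called higher and another lower. The transcript calls were fewer than the gene calls, although 1509 transcripts were at an unadjusted p under 0.05.

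The genes that rose and fell also differed in a feature that the comparison did not use, the length of their most abundant transcript in the GENCODE M21 annotation. A length was found for 4133 of the 4427 tested genes (93.4%). The median was 2932 nt over tested genes, 2193 nt over genes that rose and 3424 nt over genes that fell. Under 1000 nt 6.31% of genes rose and 2.70% fell, and over 6000 nt 0.600% rose and 7.20% fell. The median log2 difference ran from 0.09 in the shortest class to -0.19 in the longest, and from 0.14 to -0.22 in Phase II. The part of transcript length, and of RNA quality, in any call was not tested.

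**Figure D5:**
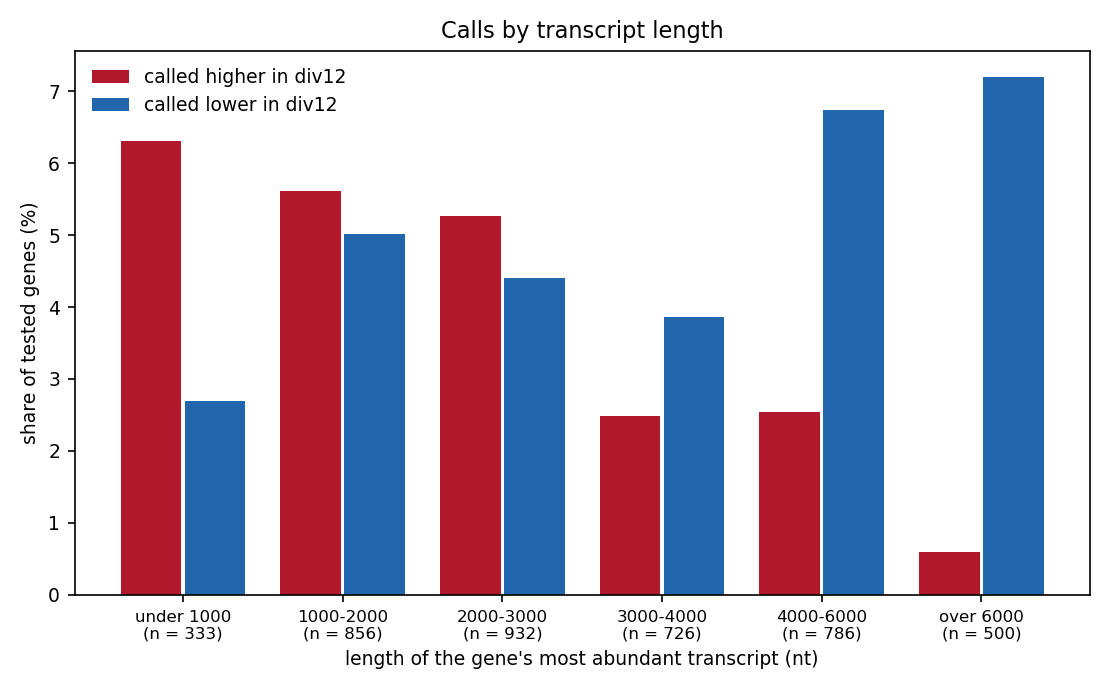
Bars give the share of tested genes in each class of transcript length (nt, with the number of genes) that was called higher (red) or lower (blue) in divided cells. The red bars fall from 6.31% under 1000 nt to 0.600% over 6000 nt, and the tallest blue bar is the 7.20% of the longest class.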

How the data were processed

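RNA of 10 libraries (5 groups of 2) was sequenced as rRNA-depleted, single-end reads, per the labels' protocols. The deposited table gives the authors' TPM values per transcript. Build mm10 and the tools Salmon, HISAT2, HTSeq, featureCounts and DESeq2 appear in the submitters' processing notes, with roles and versions not given in the sources used here. Rows without a usable symbol (63 of 13128) were left out, and 13065 transcripts were summed to 6610 genes.

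Values were log2(TPM + 1) transformed, and the 4427 genes that reached 1 TPM in 2 or more libraries were kept. limma 3.58.1 in R 4.3.3 was fitted to all 10 libraries with group as the only term and a mean-variance trend (5 residual degrees of freedom), with two-sided Benjamini-Hochberg adjusted p-values. The code was tested on simulated data. Depth is unknown, so no count model was run and no counting interval is given.

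Genes named are the 15 largest called rises and falls with a mean of at least 10 TPM, the 8 largest in TPM, up to 6 called and 2 uncalled members of each list, and a set of B cell and cell cycle genes, without histones, small RNAs, immunoglobulin segments and unnamed gene models. The members, lists and rules were chosen with earlier results of these data known. Promoters are from RefSeq (GRCm38.p6) and transcript lengths from GENCODE M21. Alternatives were other pseudocounts, filters, scalings, sample sets, a replicate block, no trend, the most abundant transcript, and leaving out each library. Some genes that the rule names are not reported here.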

Additional observations from a re-analysis of the deposited data

How the results depend on the processing

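The number of calls between divided and undivided cells changed with the setting. All 388 kept their direction with median-ratio scaling and with quantile normalization, which could hardly have failed and lends the calls no support. The smallest called differences were 0.27 among rises and 0.31 among falls. The median over all tested genes moved only from -0.07 to 0.02 with median-ratio scaling and to -0.0028 with quantile normalization. Against 388 called genes (163 higher, 225 lower), limma gave 162 with no filter (76 and 86), 236 in the compared groups alone (106 and 130), 601 without the naive group (265 and 336), 183 with no trend (68 and 115), 223 for the most abundant transcript (100 and 123) and, higher only, 346 with median-ratio scaling. Leaving out 1 library gave 0 to 607 genes, 0 to 264 higher and 0 to 343 lower. It was 0 without div0 replicate 1 or 2, 4 without div12 replicate 2, 119 without div12 replicate 1, 237 and 241 without 1 of the div12_48_u libraries, and 607 and 604 without naive replicate 1 or 2. A fit that leaves an arm with 1 library assumes that it varies like the other groups. The 404 calls at a pseudocount of 0.1 TPM and the 342 at 5 TPM stayed close to the main count.

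The replicate numbers are not stated to link animals, and deviations of same-numbered div0 and div12 libraries did not go together (r = -0.24 across genes). With the replicate block 247 genes were called (101 higher, 146 lower), 236 of them among the 388. The block gave 3 genes for the difference between phases and 0 transcripts (1435 at an unadjusted p under 0.05).

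For Phase II, 1134 genes were called, 670 in the compared groups alone and 347 to 1432 with 1 library left out. For the difference between the phases the counts were 0, 22 with median-ratio scaling, 11 in the 4 activated groups alone, and 0 to 11 with 1 library left out. Transcript calls went from 64 to 16 at a pseudocount of 5, 112 with median-ratio scaling, 130 with the filter at 5 TPM and 0 to 47 with 1 library left out. Of the 107 genes printed, Ccnd3 changed sign, from -0.01 to 0.11 with median-ratio scaling, 0.0164 with quantile normalization and 0.0467 for the most abundant transcript, and between -0.11 and 0.10 with 1 library left out. It was never called. Under the scalings, the median of a list changed sign for germinal centre genes (0.07 with median-ratio scaling or quantile normalization), p53 targets (0.08 and 0.01), interferon genes (0.02 with median-ratio scaling), plasma cell genes (0.0092 with median-ratio scaling) and D cyclins, CDKs and pocket proteins (0.0021 with quantile normalization). The cause of these changes was not tested beyond what fewer libraries or genes imply.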

Other observations

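A few groups outside the lists were looked at after their values were seen, and are given as values only. Among all tested genes 3.68% rose and 5.08% fell. Of 34 tested genes whose symbols start with Eif or Eef, the factors of translation initiation and elongation, 6 rose and 0 fell in divided cells, with a median log2 difference of 0.12. Of 13 tested genes whose symbols start with H2-, which includes classical and nonclassical MHC genes, 5 fell and 0 rose, and all 13 differences were negative. Members of this family are similar in sequence, and their reads were not separated further here.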
